A study of Rattus norvegicus with 9 samples.

Results

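In cultured 4T1 mammary carcinoma cells, 48 of 2392 deposited genes were low only with molybdenum disulfide particles (MoS2) combined with near-infrared light (NIR). In the expression table as deposited, they sat at the untreated level with the particles alone. They were selected on the 9 deposited scores of each gene. All 3 scores of the MoS2_NIR libraries had to lie below the other 6. The difference of group means between MoS2 and Control, divided by that between MoS2_NIR and Control and here called the share, had to lie from -0.15 to 0.15. Of 554 genes with all 3 irradiated scores below the other 6, 73 met the bounds, and 25 of these were then dropped by name, mostly predicted genes without a known function. Because this selection used every contrast between the groups, the values of the 48 members are given as a description without a test. The level with the particles alone depended on scaling. With libraries scaled so that the median gene was alike, all 48 were lower with MoS2 than in Control. Of the 48, 15 then still met the selection. With all libraries given the same distribution of values (quantile normalization), 26 were lower and 22 higher with MoS2 than in Control. Of the 48, 40 then met the selection.

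The 3 groups held 3 libraries each and differed in one exposure: culture medium for Control, MoS2 for the second group, and MoS2 with NIR for the last. No group received light without particles, so an effect of the light alone cannot be told apart from an effect of light acting on particles. All cells were grown in high-glucose DMEM with fetal bovine serum and antibiotics. 4T1 is a single established line from a mouse breast tumour, the gene identifiers are those of mouse, and the labels nevertheless give the organism as rat. The labels used here give no particle dose, light dose, temperature or time of harvest, and do not say whether the replicates were separate cultures, so the p-values reflect the spread among these libraries, which may be technical.

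Photothermal therapy heats tumour cells with particles that absorb near-infrared light. Heat and other stresses are known to change short-lived messages first: brakes on growth, inhibitors of NF-kB, death genes and immediate early transcription factors are made and degraded quickly. Messages of replication-dependent histones are known to follow DNA synthesis, and thioredoxin-interacting protein and its relative Arrdc4 are known to follow the supply of glucose.

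The table held a standardized score for each gene, so the amount of change was not in it directly. Expression values were recovered from the scores for 2390 of the 2392 genes, among them all 48 members. The scores leave a common whole-number factor of value + 1 open for each gene, and the lowest solution was taken. Percentages, folds and values listed at 0 depend on that choice. Differences of log2 (value + 1) do not. The unit of these values is not stated, and the sequencing depth behind them is unknown, so no counting interval is given and levels of different genes are not compared. The median recovered value per library was 1.63 to 2.07 without light and 3.19 to 3.26 with light, and 1344 genes of the table had all irradiated scores above the other 6. Libraries of one group correlated at 0.982 to 0.988 on log2 (value + 1), a description over genes that share the libraries. Of 23 markers listed for 4T1 cells 7 were in the table: Spp1, Fn1, Lcn2, Csf3, Snai1, Postn and Krt14. The keratin gene Krt14 was at 0.12 to 1.13 in every library, and Postn at 0.39 to 4.5. The epithelial markers Epcam, Cdh1 and Krt8 were not among the genes analysed here. Of 25 markers listed for immune, endothelial, stromal and red blood cells, the single one in the table was Col1a1, at 0.28 to 0.86 in every library.

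In the median member the irradiated mean was 43.7% of the mean of the 6 unirradiated libraries, with quartiles of 33.4% and 51.6%. The irradiated mean was under 50% in 35 members and at least 50% in 13, and the highest remainder was 64.9% for Runx1. In bulk RNA, fewer cells expressing a gene and less RNA per cell cannot be told apart. In limma over 1748 genes that passed a filter on low values, 25.4% were lower and 61.7% higher in MoS2_NIR than in MoS2, and 33.9% were lower and 63.5% higher than in Control, at a Benjamini-Hochberg adjusted p under 0.05. How the submitters chose the genes of the table is not stated, and 2097 of them differed at least 2-fold between some pair of group means, so these percentages are those of a selected table. The 44 members that passed the filter were all among the lower genes in both comparisons, which the selection brought about. Between MoS2 and Control, 16.8% of the tested genes were lower and 30.1% higher, and 0 members were called by limma, or passed an unadjusted p of 0.05, again by selection. Gpr17, Pdlim1, Capn5 and Tmem44 did not pass the filter.

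**Figure D1:**
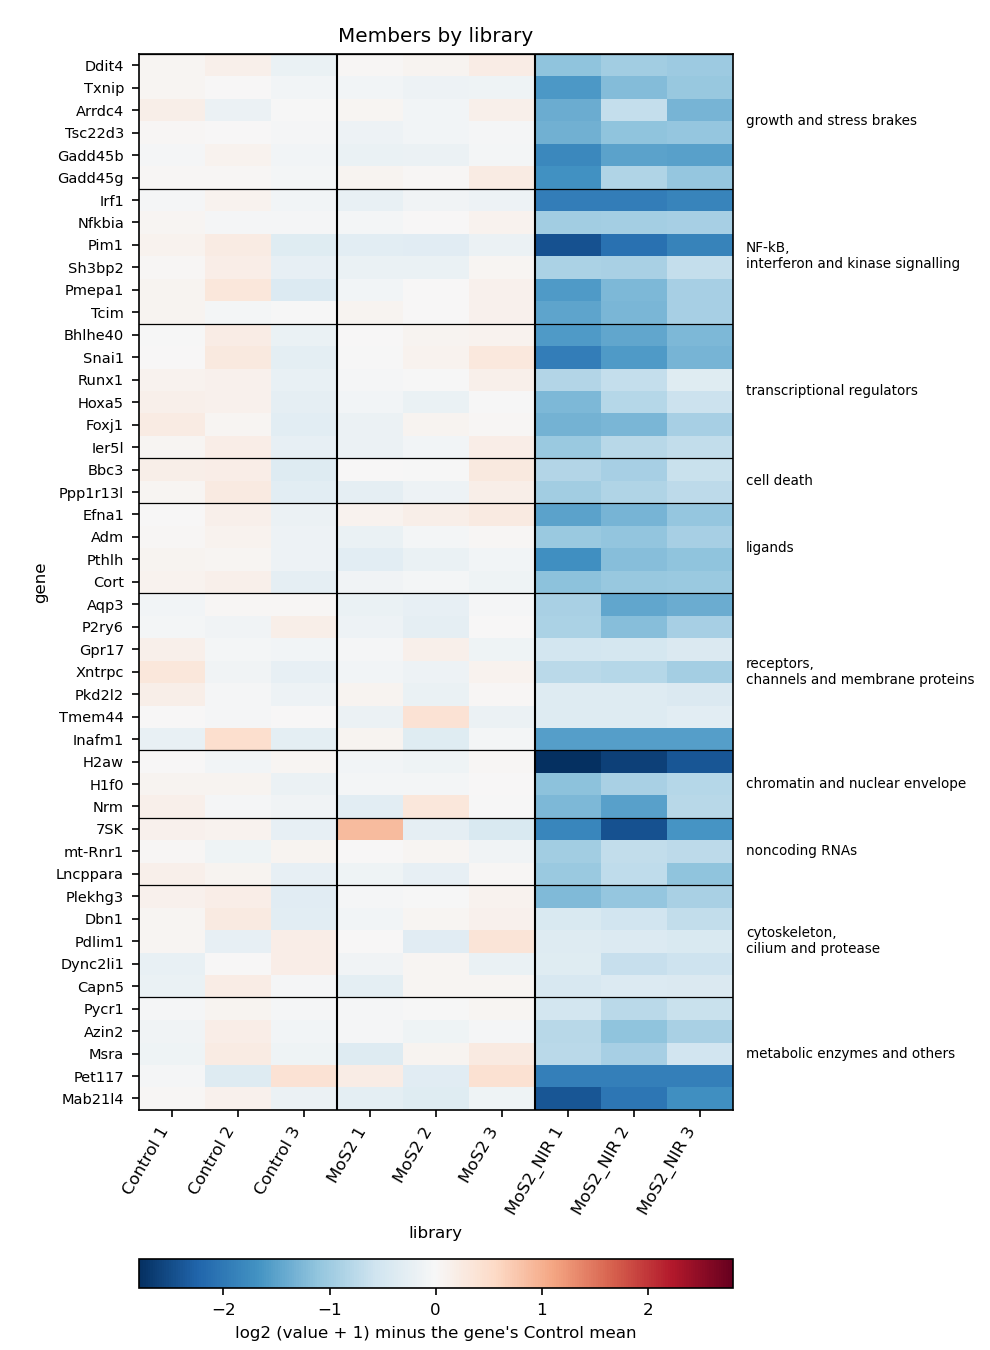
Each row is one of 47 of the 48 members, ordered by role, and each column one library. Colour gives log2 (value + 1) minus the gene's mean over the 3 Control libraries, and the 3 MoS2_NIR columns are blue in every row while the MoS2 columns stay near 0, apart from 7SK in MoS2 replicate 1.

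Among all 554 genes whose irradiated scores lay below the other 6, the share had a median of 0.382 and quartiles of 0.226 and 0.512, and 460 lay above the upper bound. The members had a median share of 0.021, positive in 29 and negative in 19. Just inside the bounds were Efna1 at -0.131, Bbc3 at -0.115, Sh3bp2 at 0.133 and Dync2li1 at 0.136. Just outside were Hcar2 at -0.183, Dusp7 at -0.178, Gbp8 at 0.151 and Stk17b at 0.152. The histogram of the share has no gap at either bound.

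In the genes just outside the bounds the irradiated libraries were also the 3 lowest. Dusp7, a phosphatase of MAP kinases, was at 107, 116 and 78.8 in Control, 108, 104 and 117 with MoS2 and 51, 57.9 and 63.7 after light. Stk17b, a kinase linked to apoptosis, was at 44.0, 44.7 and 40.0 in Control, 40.5, 40.4 and 37.3 with MoS2 and 22.2, 23.2 and 27.9 after light. Gbp8, an interferon-induced guanylate-binding protein, was at 9.50, 10.5 and 11.6 in Control, 11.2, 6.05 and 9.16 with MoS2 and 4.50, 1.05 and 2.54 after light. Hcar2 codes for a receptor for hydroxycarboxylic acids and niacin. It was at 4.19, 3.92 and 3.17 in Control, 4.70, 4.10 and 4.08 with MoS2 and 1.57, 1.40 and 1.88 after light.

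**Figure D2:**
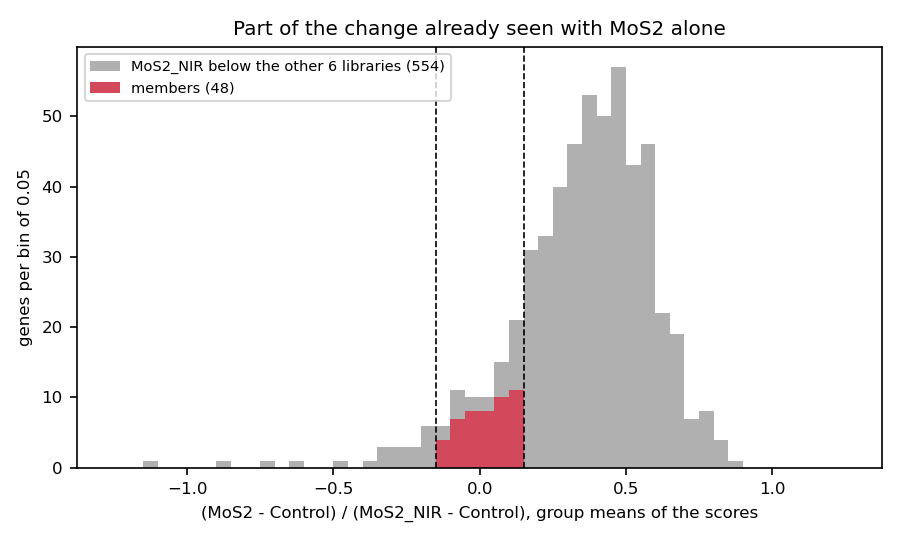
The x axis gives the share of the change from Control that was present with MoS2 alone, and the y axis the number of genes per bin, for the 554 genes whose 3 MoS2_NIR scores lay below the other 6. Red marks the 48 members between the dashed bounds; most of the other genes lie to the right of the upper bound.

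Brakes on growth and stress sensors formed one group of 6 members, with 34.2% to 46.7% of the unirradiated mean left. Ddit4 codes for an inhibitor of the growth kinase mTORC1. It was at 318, 335 and 269 in the Control libraries, 314, 324 and 354 with MoS2 and 140, 156 and 150 after light. The irradiated libraries were the 3 lowest, 2.14-fold below the mean of the other 6, and the Control and MoS2 values overlapped. Gadd45b and Gadd45g code for stress proteins that act in MAP kinase signalling and DNA repair. Gadd45b was at 252, 277 and 245 in Control, 225, 230 and 248 with MoS2 and 73.3, 90.2 and 89.5 after light, which left 34.2% of the unirradiated mean. Gadd45g was at 87.0, 87.6 and 82.0 in Control, 90.4, 88.0 and 101 with MoS2 and 25.6, 47.1 and 39.9 after light. All 3 MoS2 libraries of Gadd45g lay above the Control libraries, and its irradiated libraries were far apart, with the first the lowest and the second the highest.

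Txnip and Arrdc4 code for related arrestin-like proteins, of which Txnip binds thioredoxin and limits glucose uptake. Txnip was at 73.4, 71.9 and 67.2 in Control, 67.1, 64.4 and 64.7 with MoS2 and 22.5, 30.0 and 33.4 after light. Its MoS2 libraries lay just below its Control libraries, and the irradiated mean was 2.38-fold below the other 6. Arrdc4 was low throughout, at 6.05, 4.62 and 5.29 in Control, 5.54, 4.93 and 5.93 with MoS2 and 1.42, 2.96 and 1.55 after light. Tsc22d3, known as GILZ and induced by glucocorticoids and FOXO factors, was at 72.2, 71.0 and 69.5 in Control, 64.5, 66.9 and 69.7 with MoS2 and 27.5, 31.8 and 33.1 after light. Of 6 other tested genes in a list of FOXO targets and growth factor withdrawal genes, 3 were lower and 3 higher in MoS2_NIR than in MoS2. Their median log2 difference was 0.22, beside 0.68 over all tested genes. Klf6, a transcription factor in that list, rose from a mean of 30.8 with MoS2 to 82.4 after light (log2 change 1.39, SE 0.115, limma adjusted p = 3.25e-06), and its Control mean was 30.1.

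Gadd45a, of the same family, was no member. It was at a mean of 116 in Control, 82.8 with MoS2 and 53.0 after light, and was thus already lower with the particles (limma adjusted p = 0.00596) before it fell further with light (adjusted p = 0.000294). It was taken up as a relative of members by its symbol after values had been seen, like the other relatives below.

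**Figure D3:**
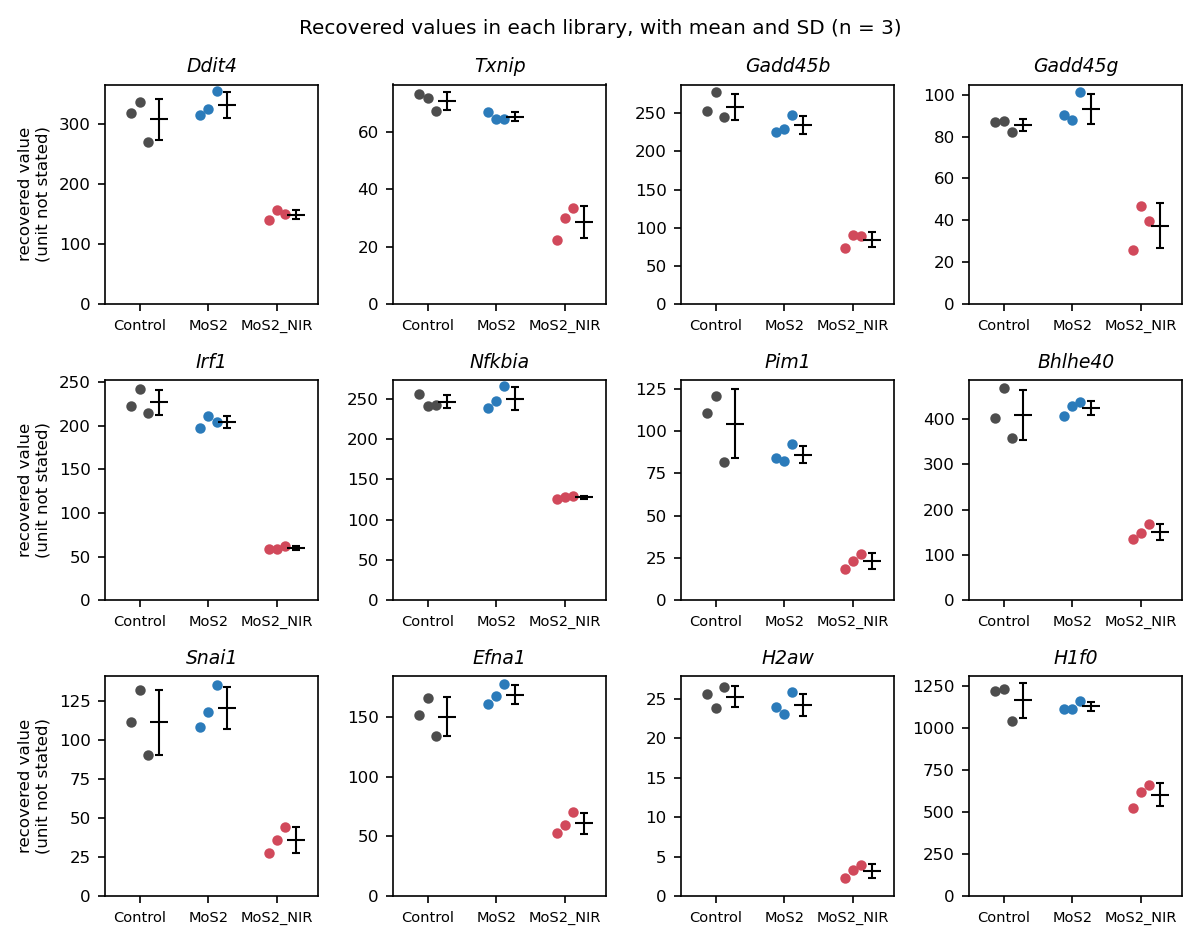
Recovered values of 12 members, one panel a gene, with linear y axes from 0; dots are libraries and the black marks the mean and SD of 3 libraries. In every panel the 3 red MoS2_NIR dots lie below all grey Control and blue MoS2 dots, as the selection requires.

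Regulators of NF-kB, interferon and kinase signalling made up 6 members, with 24.1% to 57.3% of the unirradiated mean left. Irf1, a transcription factor of the interferon response, was at 223, 243 and 215 in Control, 197, 211 and 205 with MoS2 and 58.3, 58.5 and 62.1 after light. Its irradiated libraries were close together, with a mean of 59.6 ± 2.15 (SD, n = 3) that was 3.62-fold below the other 6, and its MoS2 libraries lay just below its Control libraries. Nfkbia, the inhibitor I kappa B alpha that holds NF-kB in the cytoplasm and is itself an NF-kB target, was at 256, 241 and 243 in Control, 238, 247 and 266 with MoS2 and 126, 128 and 129 after light. Pet117 and Inafm1, listed at 0 in all irradiated libraries, had no spread there. Among the other members the spread between irradiated libraries, relative to the decrease, was smallest for Nfkbia at 0.0204 and next for Irf1 at 0.0276. A relative, Nfkbid, which codes for a nuclear I kappa B protein, rose from a mean of 0.963 with MoS2 to 3.69 after light (log2 change 1.26, SE 0.115, limma adjusted p = 5.89e-06).

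Pim1, a constitutively active kinase induced by cytokines through STAT factors, was at 111, 121 and 81.9 in Control, 84.3, 82.1 and 92.2 with MoS2 and 18.2, 23.3 and 27.4 after light. Its irradiated mean was 4.15-fold below the other 6, and its MoS2 mean lay 17.5% from its Control mean, the furthest of the 48. Pmepa1, a membrane protein that dampens TGF-beta signalling and is induced by it, was at 138, 163 and 99.4 in Control, 125, 131 and 142 with MoS2 and 43.0, 54.3 and 68.1 after light. The Control libraries of Pmepa1 were spread wider than its MoS2 libraries, with an SD of 32.1 beside 8.74. Tcim, a small regulator linked to beta-catenin signalling and inflammation, was at 114, 104 and 107 in Control, 115, 110 and 119 with MoS2 and 38.4, 44.4 and 56.3 after light. Sh3bp2, an adaptor of immune receptor signalling, was at 36.5, 40.4 and 30.2 in Control, 31.0, 31.1 and 36.6 with MoS2 and 18.6, 18.5 and 21.8 after light. For both genes the irradiated libraries were lowest and the 2 other groups overlapped.

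Between MoS2 and Control Irf1 differed by -0.15 on the log2 scale, beside a median of -0.43 over other tested interferon genes. The bounds of the share limited this value of Irf1. Of 30 other tested genes of interferon response and antigen presentation, 21 were lower and 1 was higher in MoS2_NIR than in MoS2, with a median log2 difference of -0.41. In MoS2 against Control 21 of the 30 were lower and 1 was higher. The mean of B2m, the invariant chain paired with MHC class I, fell from 1015 with MoS2 to 653 after light (limma adjusted p = 1.58e-05), and was at 1229 in Control. Gbp2, an interferon-induced GTPase, had means of 32.4, 21.8 and 11.5 in Control, MoS2 and MoS2_NIR (adjusted p = 1.98e-05 against MoS2). Zbp1, a sensor of Z-form nucleic acids, had means of 12.2, 4.82 and 1.5 (adjusted p = 6.47e-05 against MoS2).

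Transcriptional regulators made up another 6 members, with 25.8% to 64.9% left. Bhlhe40 codes for a basic helix-loop-helix repressor that acts on the circadian clock and in hypoxia. It was at 402, 468 and 358 in Control, 408, 429 and 438 with MoS2 and 134, 148 and 168 after light, 2.78-fold below the other 6. Snai1, which represses E-cadherin in epithelial to mesenchymal transition, was at 111, 132 and 90.4 in Control, 108, 118 and 135 with MoS2 and 27.8, 36.1 and 44.1 after light. In both genes Control replicate 3 was the lowest of the unirradiated ones and the first irradiated library the lowest of all. Hoxa5, a homeobox factor that activates p53 in human breast cells, was at 37.4, 36.8 and 28.4 in Control, 31.9, 29.6 and 33.4 with MoS2 and 13.7, 18.9 and 22 after light. Runx1, a core-binding factor of blood and mammary epithelium, was at 51.1, 52.5 and 41.1 in Control, 47.0, 47.4 and 53.1 with MoS2 and 26.8, 30.0 and 38.0 after light. Its highest irradiated library came to 92.4% of its lowest unirradiated one, and its irradiated spread of 0.402 of the decrease was the largest of the members.

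Ier5l, a relative of an immediate early gene, was at 27.9, 30.7 and 22.8 in Control, 23.9, 25.6 and 30.7 with MoS2 and 12.6, 15.2 and 16.3 after light. Foxj1, the master factor of motile cilia, was near the floor of the data at 3.66, 3.10 and 2.25 in Control, 2.55, 3.19 and 3.05 with MoS2 and 0.59, 0.63 and 1.08 after light. Of 14 other tested immediate early and AP-1 genes, 2 were lower and 11 higher in MoS2_NIR than in MoS2, with a median log2 difference of 1.21, beside 0.68 over all tested genes; the direction of Ier5l and Gadd45b was set by selection. Myc, a driver of growth, rose from a mean of 53.1 with MoS2 to 183 after light (log2 change 1.76, SE 0.106, limma adjusted p = 8.35e-07). Ier3, an early response gene of NF-kB, rose from 210 to 532 (adjusted p = 1.02e-06), and Dusp5, a phosphatase of ERK, from 10.3 to 33.1 (adjusted p = 8.35e-07).

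Of 7 other tested clock genes 3 were lower and 4 higher in MoS2_NIR than in MoS2. Their median log2 difference was 0.47, beside 0.68 over all tested genes. Nr1d1, the clock repressor REV-ERB alpha, had means of 285, 189 and 51.2 in Control, MoS2 and MoS2_NIR (log2 change against MoS2 -1.88, SE 0.159, limma adjusted p = 3.81e-06). It was already lower with the particles alone (adjusted p = 0.0137), a call that quantile normalization ended (0.0821). Per2, a core clock component, went the other way with means of 1.16, 2.16 and 7.19 (adjusted p = 9.29e-06 against MoS2). Bhlhe40, Foxj1 and Hoxa5 belong to a list of factors of the KLF, SOX, FOX, GATA, ETS, bHLH and homeobox families. Of 21 other tested genes of that list, 4 were lower and 15 higher in MoS2_NIR than in MoS2. Their median log2 difference was 0.88, beside 0.68 over all tested genes, of which 25.4% were lower and 61.7% higher. Relatives of Foxj1 went both ways. Foxa1, the pioneer factor of luminal mammary cells, rose from a mean of 1.07 with MoS2 to 3.57 after light (limma adjusted p = 2.81e-05). Foxn2 rose from 3.52 to 7.31 (adjusted p = 0.000134), a call lost with median-ratio scaling (0.18) and quantile normalization (0.0664). Foxc2 fell, with means of 11.9 in Control, 14.8 with MoS2 and 7.08 after light (adjusted p = 0.000264 against MoS2).

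**Figure D4:**
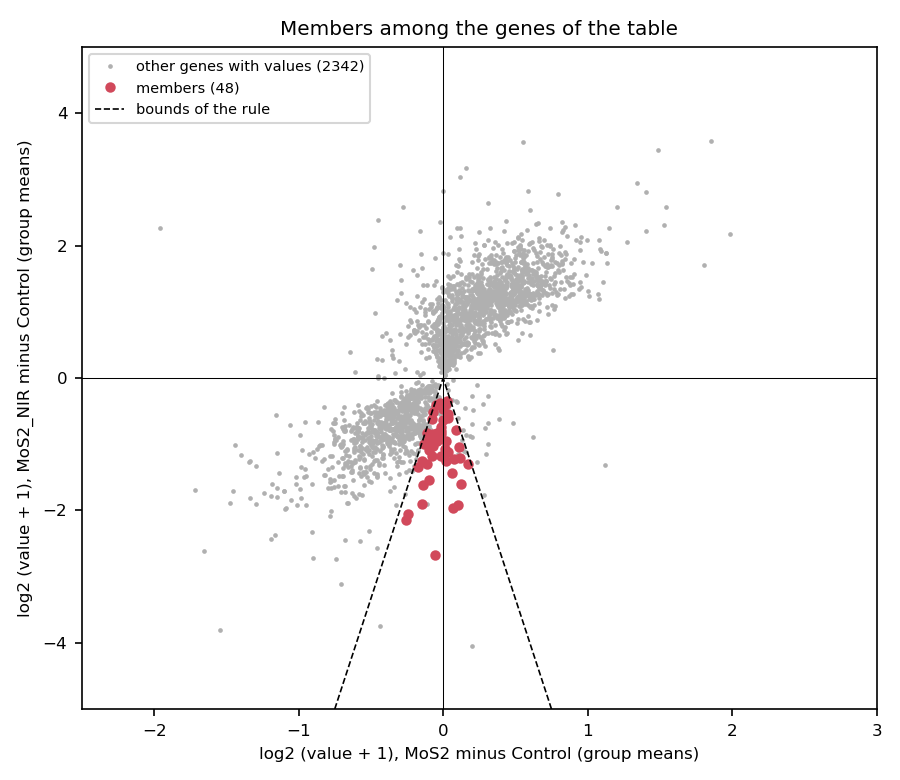
Each point is one of 2390 genes; the x axis gives the difference of MoS2 from Control and the y axis that of MoS2_NIR from Control, both of group means of log2 (value + 1). The 48 members in red lie below 0 on the y axis inside the dashed bounds, while most genes lower with light lie to their left.

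Members that act in cell death kept over 50% of the unirradiated mean. Bbc3, the p53-induced BH3 protein PUMA, was at 22.2, 22.6 and 15.2 in Control, 19.9, 19.5 and 24.1 with MoS2 and 10.8, 9.91 and 12.5 after light. Ppp1r13l, the p53 inhibitor iASPP, was at 44.4, 50.8 and 34.3 in Control, 35.6, 38.7 and 48.2 with MoS2 and 21.3, 23.4 and 25.4 after light. In both genes the irradiated libraries were the 3 lowest and the other groups overlapped. Bcl2l11, another BH3 gene that codes for BIM, had means of 31.5, 22.6 and 17.4 in the 3 groups. It fell with MoS2 alone (limma adjusted p = 0.00692) and again with light (adjusted p = 0.00868).

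Among 4 members that code for ligands, 23.3% to 49.6% of the unirradiated mean was left. Efna1, a membrane-anchored ephrin, was at 152, 166 and 134 in Control, 161, 167 and 178 with MoS2 and 52.5, 59.8 and 70.3 after light, 2.62-fold below the other 6. Its main receptor Epha2 moved the other way, with means of 35.1 ± 5.95 in Control, 59.5 ± 1.44 with MoS2 and 137 ± 11.1 after light (SD, n = 3; limma adjusted p = 1.17e-05 against MoS2). Adm, the vasodilator peptide adrenomedullin, a target of hypoxia factors, was at 76.7, 80.6 and 68.1 in Control, 65.5, 72.4 and 76.3 with MoS2 and 35.7, 34.3 and 39.1 after light. Pthlh, the parathyroid hormone-related protein through which breast tumours stimulate bone resorption, was at 14, 13.8 and 11.8 in Control, 10.6, 11.6 and 12.6 with MoS2 and 3.34, 5.22 and 5.45 after light. Cort, the somatostatin-like peptide cortistatin, was at 2.37, 2.46 and 1.62 in Control, 1.90, 1.99 and 1.87 with MoS2 and 0.41, 0.49 and 0.52 after light. In all 4 ligand genes the unirradiated groups overlapped.

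Among receptors, channels and membrane proteins were 7 members. Aqp3, a channel for water and glycerol, was at 21, 22.8 and 22.4 in Control, 19.4, 18.6 and 21.6 with MoS2 and 11.3, 7.47 and 7.79 after light. The first irradiated library was the highest of the 3, while that library was the lowest in 28 of the 48 members. Other aquaporins went both ways. Aqp1 fell from a mean of 16.7 with MoS2 to 10.6 after light (limma adjusted p = 0.000274), and Aqp5 rose from 37.0 to 73.8 (adjusted p = 2.8e-05), which no longer passed once libraries were scaled by median ratios (log2 change 0.18, adjusted p = 0.186). P2ry6, a receptor for UDP, was at 4.39, 4.27 and 5.30 in Control, 4.11, 3.74 and 4.64 with MoS2 and 2.05, 1.45 and 1.98 after light. Gpr17, Tmem44 and Pkd2l2 lay between 0.12 and 1.18 in every library, so their differences rest on small values. Xntrpc, a readthrough of Xndc1 and a TRP channel gene whose reads can be shared with both, kept 45.1%. Inafm1 was listed at 0 in all 3 irradiated libraries and at 1.32 to 3.07 in the other 6.

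Chromatin and the nuclear envelope gave 3 members. H2aw, a histone H2A gene, had the largest fold of the members above a mean of 5. It was at 25.6, 23.9 and 26.5 in Control, 23.9, 23.1 and 25.8 with MoS2 and 2.26, 3.30 and 3.99 after light. Its irradiated mean was 7.78-fold below the other 6, and its highest irradiated library came to 17.3% of its lowest unirradiated one. H1f0, the linker histone H1.0 of resting cells, was at 1216, 1231 and 1042 in Control, 1113, 1110 and 1160 with MoS2 and 526, 618 and 662 after light. Nrm, the nuclear envelope protein nurim, was at 32.6, 28.5 and 27.2 in Control, 23.8, 36.7 and 29.4 with MoS2 and 11.7, 9.55 and 16.7 after light. Histone genes have near-identical copies, and how the counting treated reads shared between them is not stated in the sources used here. The labels give the RNA as polyadenylated, while messages of replication-dependent histones normally lack a poly(A) tail. The part of this in the histone values was not tested.

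Of 8 other tested histone genes, 6 were lower and 1 was higher in MoS2_NIR than in MoS2, with a median log2 difference of -0.89. H1f2, a linker histone of dividing cells, had means of 45.1 ± 1.27 in Control, 27.2 ± 1.43 with MoS2 and 4.45 ± 1.34 after light (log2 change against MoS2 -2.40, SE 0.16, limma adjusted p = 1.09e-06). H2bc4 had means of 10.9, 7.65 and 3.33 (adjusted p = 6.26e-05). Both were already lower with MoS2 alone, H1f2 with an adjusted p of 0.00579 and H2bc4 with 0.0206, the latter lost on leaving out Control replicate 1 (0.0556) or MoS2 replicate 3 (0.0643). H2ax, the variant phosphorylated at DNA breaks, was the higher one, with means of 21.1, 44.2 and 72.8 (adjusted p = 0.000178). Its difference turned to -0.09 after median-ratio scaling (adjusted p = 0.448).

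Of 3 noncoding RNAs, 7SK, which restrains the elongation factor P-TEFb, was at 4.88, 4.8 and 3.64 in Control, 8.96, 3.54 and 3.04 with MoS2 and 0.52, 0 and 0.73 after light. The first MoS2 library was far above the other 5 unirradiated libraries. The labels give the RNA as polyadenylated, 7SK is not normally polyadenylated, and the genome holds many copies of it; their part in these values was not tested. The mitochondrial 12S ribosomal RNA mt-Rnr1 was at 218, 198 and 226 in Control, 215, 221 and 199 with MoS2 and 109, 131 and 129 after light. Protein-coding genes of the same genome went up. The complex I subunit genes mt-Nd1 and mt-Nd2 had means of 478 and 370 in Control, 835 and 624 with MoS2 and 1776 and 1203 after light. Their rise from MoS2 (limma adjusted p = 1.09e-06 and 3.3e-06) was no longer called after median-ratio scaling, at log2 changes of 0.28 and 0.13. Lncppara, a long noncoding RNA near Ppara, was at 10.4, 9.88 and 7.70 in Control, 8.45, 7.79 and 9.41 with MoS2 and 3.99, 5.22 and 3.69 after light. Whether reads were counted by strand is not stated, so those of overlapping genes on opposite strands may not be told apart.

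The 5 members of the cytoskeleton, cilia and proteolysis kept 46.3% to 62.1%. Plekhg3, which acts at the leading edge of migrating cells, was at 64.4, 67.4 and 46.6 in Control, 57.0, 58.1 and 63.0 with MoS2 and 24.4, 27.0 and 31.1 after light. Dbn1, the actin-binding protein drebrin, was at 6.38, 7.45 and 4.86 in Control, 5.82, 6.38 and 6.79 with MoS2 and 4.33, 3.93 and 3.44 after light, a narrow gap to Control replicate 3. Dync2li1, a light intermediate chain of the motor for retrograde transport in cilia, was at 0.98, 1.33 and 1.63 in Control, 1.16, 1.39 and 1.03 with MoS2 and 0.81, 0.48 and 0.54 after light. The calpain protease Capn5 and the PDZ and LIM domain protein Pdlim1 lay between 0.38 and 1.40 in every library. Of the other calpains, Capn10 and Capn15 rose from MoS2 to light (limma adjusted p = 9.29e-06 and 1.2e-05), from means of 5.59 and 3.55 to 14.9 and 10.3.

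Metabolic members were few. Pycr1, the mitochondrial enzyme that makes proline, was at 22.6, 24.4 and 22.8 in Control, 22.6, 23 and 24.2 with MoS2 and 16.1, 13.4 and 14.7 after light. Its unirradiated groups had the same mean of 23.3, and its share was -0.002. Azin2, which raises polyamines by binding antizyme, was at 9.20, 11.4 and 9.44 in Control, 9.68, 9.05 and 9.76 with MoS2 and 5.41, 3.99 and 4.87 after light. Msra, which repairs oxidized methionine, kept 49.3%. Pet117, an assembly factor of cytochrome c oxidase, was listed at 0 in all 3 irradiated libraries and at 1.93 to 4.09 in the others. Mab21l4, of little known function, was at 37.1, 39.7 and 32.3 in Control, 29.9, 28.3 and 33.1 with MoS2 and 6.09, 8.13 and 10.3 after light, 4.09-fold below the other 6.

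Across members the irradiated libraries were ordered unevenly. MoS2_NIR replicate 1 was the lowest in 28 members, replicate 2 in 12 and replicate 3 in 5, with 3 ties. Of the other 506 genes below all unirradiated libraries, replicate 1 was lowest in 209, replicate 2 in 141 and replicate 3 in 116, with 40 ties. Among the 6 unirradiated libraries Control replicate 3 was lowest in 20 members and Control replicate 2 highest in 20. Control replicate 3 also had the lowest median and the lowest sum of recovered values, at 1.63 and 31746. The part of this in the members' values was not tested.

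The values of MoS2 and Control overlapped in 45 members. Of the 3 that did not overlap, Gadd45g was higher and Irf1 and Txnip were lower with MoS2, and 49.9% of all genes in the table did not overlap; the bounds on the share fix most of this contrast. The MoS2 mean was within 10% of the Control mean in 38 members, with a median difference of 5.73%. Whether the members sat at the Control level with MoS2 depended on scaling. As deposited, the median member differed by -0.02 on the log2 scale between MoS2 and Control. After quantile normalization it also differed by -0.02, with 26 members lower and 22 higher. After median-ratio scaling, which set the median gene alike in all libraries, it differed by -0.32. All 48 members were then lower with MoS2 than in Control, and the median difference of MoS2_NIR from MoS2 went from -0.98 to -1.64. The scaling factors were computed on the genes of this table. They were 0.661 to 0.786 for Control, 0.904 to 0.951 for MoS2 and 1.60 to 1.68 for MoS2_NIR. That scaling assumes a mostly unchanged set of genes, while 1344 of the 2392 genes had all irradiated scores above the other 6.

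The medians of all tested genes moved with the scaling too. The median log2 difference of MoS2_NIR from MoS2 was 0.68 as deposited, 0.03 with median-ratio scaling and 0.21 with quantile normalization. Lists moved with it: with median-ratio scaling, 29 of 30 interferon genes and 7 of 8 histone genes were called lower than in MoS2. The immediate early list then had 2 lower and 8 higher genes, the transcription factor families 6 and 7, the clock list 3 and 2, and the FOXO list 3 and 2. Applied after median-ratio scaling, the selection kept 15 of the 48: 7SK, Arrdc4, Bbc3, Bhlhe40, Ddit4, Efna1, Gadd45g, H2aw, Nfkbia, Nrm, Pet117, Plekhg3, Pmepa1, Snai1 and Tcim. Irf1, Pim1, Txnip, Gadd45b and H1f0 were among those that left it. On leaving out each of the 9 libraries in turn, 20 members met the selection every time, among them Irf1, Nfkbia, Bhlhe40, Txnip, Gadd45b, Gadd45g, H2aw and H1f0.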

How the data were processed

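RNA of 4T1 cells was sequenced in 9 libraries, 3 per group, on an Illumina HiSeq 2000, from polyadenylated RNA per the labels. The submitters' processing notes name Bowtie 0.12.9, Cufflinks 2.1.1, HTSeq and the mm10 build, without their roles; the strand setting and the unit before scoring are not given in the sources used here. The deposited table holds a score per gene and library. Checked on the values, the 9 scores of 2391 genes have a mean of 0 and a population SD of 1, and equal the standardized natural log of 1 plus a value in steps of 0.01. For each gene, a set of such values that gave the scores to within 1e-09 was searched for from low values upward. It was found for 99.92% of 2392 genes. The search stopped at the first such set and did not look for another. A common whole-number factor of value plus 1 is not fixed by the scores, and the lowest solution was taken. Differences of log2 (value + 1) do not depend on it, while values, percentages and folds do. Levels of different genes are therefore not compared.

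Members were chosen on all 9 scores of a gene, and the members and the 25 gene lists with earlier results of these data known. Relatives of members were found by symbol after values were seen. Differences were tested with limma 3.58.1 in R 4.3.3 (intensity trend, robust) on log2 (value + 1), with all 3 groups in one fit and 6 residual degrees of freedom, over the 1748 genes that reached a value of 1 in 3 or more libraries. Adjusted p-values are Benjamini-Hochberg over those genes, with a threshold of 0.05. A fold on this log scale understates the change of low genes. No p is given for members, and 1 member and 1 gene list are not reported here. The groups are those of the titles, and all 9 columns were used. The search and the test were checked on simulated data.

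Values in every library are given for the 25 members of largest decrease among those with an unirradiated mean of at least 5, the 5 at the highest values, those in gene lists, and those at the bounds or at the extremes of spread; other list genes are named by smallest adjusted p, up to 3 a list. Alternatives were pseudocounts of 0.1 and 5, no filter, median-ratio scaling, quantile normalization, a replicate block, other bounds, linear values, and each library left out.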

Additional observations from a re-analysis of the deposited data

How the results depend on the processing

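Since the selection required the 3 MoS2_NIR scores to lie below the other 6, the sign of the members' decrease says nothing about stability and only its size is followed here. Of 1248 recomputed member differences 1031 moved by less than the spread between replicates and 217 by more. The 1031 include differences that could not move, because the library left out belonged to neither group compared. They therefore overstate the stability. The median member difference from Control was -1.03, and became -1.96 after median-ratio scaling, -1.34 after quantile normalization, -1.20 with a pseudocount of 0.1 and -0.76 with 5. From MoS2 it was -0.98, and became -1.64, -1.37, -1.15 and -0.70 in the same order. Between MoS2 and Control it was -0.02, and -0.32 after median-ratio scaling; the causes were not tested. Membership moved more: 24 genes after median-ratio scaling (15 of the 48), 68 after quantile normalization (40), 35 on linear values (35), 34 with bounds of -0.1 and 0.1 and 69 with -0.2 and 0.2. Leaving out each library in turn gave 45 to 59 genes, and 28 members were lost in at least 1 of the 9.

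Counts of lower and higher calls were 444 and 1078 for MoS2_NIR against MoS2, 611 and 415 after median-ratio scaling, and 561 and 674 after quantile normalization. Against Control they were 592 and 1110, 634 and 608, and 612 and 999, and for MoS2 against Control 294 and 526, 542 and 229, and 346 and 452. The medians of all tested genes went from 1.01 to 0.16 and 0.47 against Control, and for MoS2 against Control from 0.17 to -0.04 and 0.13.

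In same-numbered libraries of different groups, the deviations from the group means correlated at -0.081 to 0.1. This cannot show whether those libraries shared a culture or a preparation. With the number as a replicate block, 442 genes were lower in MoS2_NIR than in MoS2 and 596 lower than in Control, and 776 differed between MoS2 and Control, beside 820 without the block. Depth is unknown, so low values such as those of Gpr17, Tmem44, Pkd2l2, Pdlim1 and Capn5 carry an error that cannot be given.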

Other observations

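Slc20a1, a phosphate transporter, met both score criteria of the selection and was dropped only for its name. It was at 187, 165 and 144 in Control, 159, 159 and 160 with MoS2 and 80.5, 78.5 and 102 after light. Of the 25 genes dropped by name, 22 carried names of predicted or RIKEN genes, and the others were Zfp986, Slc20a1 and the antisense gene Ptprtos. On extracellular matrix and adhesion, a list with no member, 12 of 17 tested genes were lower and 1 was higher in MoS2_NIR than in MoS2, with a median log2 difference of -0.51. The same counts held for MoS2 against Control, with a median of -0.37. Spp1, the adhesive protein osteopontin, had means of 1242, 962 and 560 in Control, MoS2 and MoS2_NIR (limma adjusted p = 3.65e-06 against MoS2), and Mmp9, a gelatinase, had means of 47.8, 20.7 and 8.41 (adjusted p = 1.17e-05). All 11 tested genes of cell cycle and mitosis were higher in MoS2_NIR than in MoS2 as deposited (6 higher and 1 lower with median-ratio scaling), among them Plk2 at means of 45.4, 36.8 and 112 (adjusted p = 9.92e-07).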
